A study of Mus musculus with 18 samples.

Results

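The genes described here are 7 secreted antagonists of Wnt signalling (Frzb, Sfrp1, Sfrp2, Sfrp4, Dkk2, Dkk3 and Wif1) and Axin2, read as a Wnt target, 8 of 24445 gene symbols in the expression table. They were taken by symbol with 1 transcript each, and 8 of 8 were among the 12599 genes that passed a filter on low values. The list was put together with results of the same data known, and which contrasts were used for it is not recorded. Frzb and Sfrp1 were known to stand out with the Lmna guides against gMock in Pro/Pro;Cas9/+ cells, so values from that contrast are given as a description, with no test. The contrast between the guides in these cells may have been used as well, and its p-values may then be too small. RNA had been sequenced from primary tail-tip fibroblasts of mice aged 2 months, at passage 5, all of them spinfected in 4 µg/ml polybrene with a lentivirus that carried an mCherry reporter and a guide RNA, and the RNA was not treated with DNase. Pro/Pro;Cas9/+ mice were homozygous for a progeria allele of Lmna, written Pro, and carried Cas9. Pro/+; +/+ mice, called heterozygous below, had 1 Pro allele and carried no Cas9, and +/+;Cas9/+ mice had no Pro allele and carried Cas9. Cells of each mouse received gLmna-2 or gLmna-1, which target Lmna, or gMock, which does not, so that 2 mice per genotype gave 18 libraries in 9 groups of 2. More than 80% of the cells were mCherry-positive and were neither sorted nor selected. The labels give neither the promoter that drives Cas9 nor whether the name of replicate 2 of the heterozygous mice stands for 1 animal or a pool. Pro and Cas9 both differ between heterozygous and other mice, so in comparisons with heterozygous cells they cannot be told apart, and all p-values rest on 2 mice a genotype.

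Wnt ligands bind a Frizzled receptor together with the co-receptor LRP5 or LRP6, which stabilizes beta-catenin and lets it act with TCF and LEF factors on target genes. Secreted antagonists act outside the cell: the secreted Frizzled-related proteins (sFRPs) and Wif1 bind Wnt ligands themselves, while Dickkopf (Dkk) proteins such as Dkk2, but not clearly Dkk3, bind the LRP co-receptor. Skin fibroblasts are a known source of both ligands and antagonists, and Axin2, a scaffold of the complex that degrades beta-catenin, is a widely used readout because the pathway induces it as negative feedback.

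Each library held 22424410 to 42622054 reads, computed back from the deposited levels, which are fragments per kilobase scaled to depth (FPKM). The 8 genes rested on 13 reads in the library lowest in Sfrp4 and on up to 43058 reads for Dkk3, and counts of this size set the precision of each value, for counting error only. Of 11 fibroblast markers, 11 were present, with a summed level of 8649 to 12100 FPKM per library. The keratinocyte markers Krt5, Krt14, Krt1 and Epcam were below 0.1 FPKM in all 18 libraries. Macrophage markers, 6 of 6 present, summed to 62.7 to 1341 FPKM, and in bulk RNA fewer cells of a type and less RNA per cell cannot be told apart. The last part of the lamin A transcript of Lmna, which checks the guides, was at 76.6 and 63.3 FPKM with gLmna-2, 69.0 and 56.2 FPKM with gLmna-1 and 114 and 148 FPKM with gMock in Pro/Pro;Cas9/+ cells. In heterozygous cells it was at 107 to 129 FPKM with the guides, against 121 and 119.8 FPKM with gMock, and where Cas9 was present without Pro at 84.5 to 103 FPKM with the guides, against 159.7 and 143 FPKM with gMock.

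Dkk3 and Dkk2 made up most of the antagonist transcripts, and Dkk2 held a larger share in +/+;Cas9/+ cells than in the other genotypes, with no overlap between libraries. FPKM values are per length, so levels of different genes can be set side by side. Dkk3, a divergent member of the Dickkopf family whose effect on Wnt signalling is less clear, had the highest median of the 7 antagonists, at 216 FPKM over 18 libraries, and Dkk2, which binds LRP5 and LRP6, followed at 74.98 FPKM. Sfrp1 had a median of 55.6 FPKM and Sfrp2 of 34.04 FPKM, and both are sFRPs with a Frizzled-like domain. Wif1, which binds Wnt ligands, Frzb (also called sFRP3) and Sfrp4 were scarcer, with medians of 6.84, 4.38 and 0.892 FPKM. The target Axin2 had a median of 1.27 FPKM. The summed level of the 7 antagonists lay between 233 and 533 FPKM. Dkk2 held 5.98% to 15.2% of that sum in Pro/Pro;Cas9/+ libraries, 9.41% to 18% in heterozygous libraries and 33.8% to 41.6% in +/+;Cas9/+ libraries. Dkk3 held 64.7% to 72.9% in Pro/Pro;Cas9/+ libraries, 44.4% to 64.8% in heterozygous libraries and 36.5% to 44.2% in +/+;Cas9/+ libraries. In +/+;Cas9/+ libraries the ranges of Dkk2 and Dkk3 overlapped, and in the other genotypes Dkk3 was well above Dkk2. These are shares of transcripts, not of secreted protein.

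**Figure D1:**
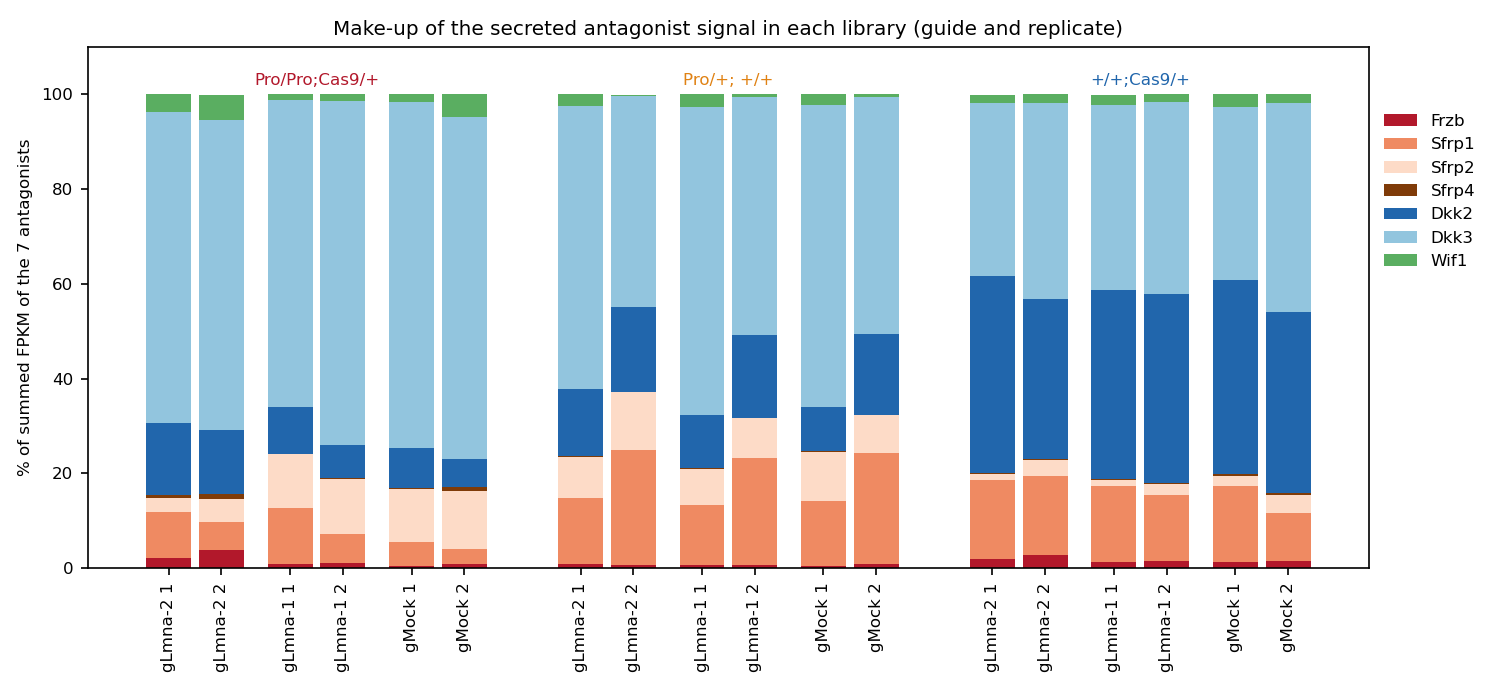
Share of each of the 7 antagonists in their summed FPKM (vertical axis, %), for each of 18 libraries (horizontal axis, treatment and replicate), grouped by genotype. Dkk2 holds 33.8% to 41.6% in +/+;Cas9/+ libraries and at most 15.2% in Pro/Pro;Cas9/+ libraries.

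The members differed in how they were spread over the 9 groups. Sfrp2 fell into 2 tiers, with 10.8 and 11.5 FPKM in Pro/Pro;Cas9/+ cells with gLmna-2 and 4.03 to 13.9 FPKM in all +/+;Cas9/+ libraries below, and 33.4 to 65.2 FPKM in the other Pro/Pro;Cas9/+ and all heterozygous libraries above. Libraries within a tier overlapped between groups, and the tiers did not. Dkk2 was at 16.3 to 55.7 FPKM in Pro/Pro;Cas9/+ libraries, 47.6 to 95.7 FPKM in heterozygous libraries and 121 to 168 FPKM in +/+;Cas9/+ libraries. The +/+;Cas9/+ libraries stood above all others for Dkk2, while the remaining genotypes overlapped. Sfrp1 was at 8.93 to 54.9 FPKM in Pro/Pro;Cas9/+ libraries, 63.4 to 129 FPKM in heterozygous libraries and 36.4 to 60.1 FPKM in +/+;Cas9/+ libraries. Its heterozygous libraries lay above the rest without overlap. Dkk3 was at 153 to 302 FPKM in Pro/Pro;Cas9/+ libraries, 215 to 324 FPKM in heterozygous libraries and 118 to 171 FPKM in +/+;Cas9/+ libraries. The heterozygous libraries were above the +/+;Cas9/+ libraries, and the Pro/Pro;Cas9/+ libraries overlapped with both.

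Among the scarcer members, Wif1 and Sfrp4 were split between the heterozygous mice. Frzb was at 2.13 to 9.14 FPKM in Pro/Pro;Cas9/+ libraries, 2.48 to 4.30 FPKM in heterozygous libraries and 4.46 to 10.2 FPKM in +/+;Cas9/+ libraries. Axin2 was at 0.379 to 3.52 FPKM in Pro/Pro;Cas9/+ libraries, 0.498 to 1.29 FPKM in heterozygous libraries and 1.55 to 2.81 FPKM in +/+;Cas9/+ libraries. For both genes the heterozygous libraries lay below the +/+;Cas9/+ libraries, and the Pro/Pro;Cas9/+ libraries spanned both. Wif1 was at 5.64 to 13.6 FPKM in Pro/Pro;Cas9/+ libraries and at 6.04 to 8.52 FPKM in +/+;Cas9/+ libraries. In heterozygous cells Wif1 was at 12.1 to 14.1 FPKM in the 3 libraries of replicate 1 and at 1.92 to 2.47 FPKM in the 3 libraries of replicate 2. Sfrp4 showed the same split of those mice, with 0.885 to 1.06 FPKM in replicate 1 and 0.207 to 0.366 FPKM in replicate 2. A mean over these 2 mice describes neither of them.

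**Figure D2:**
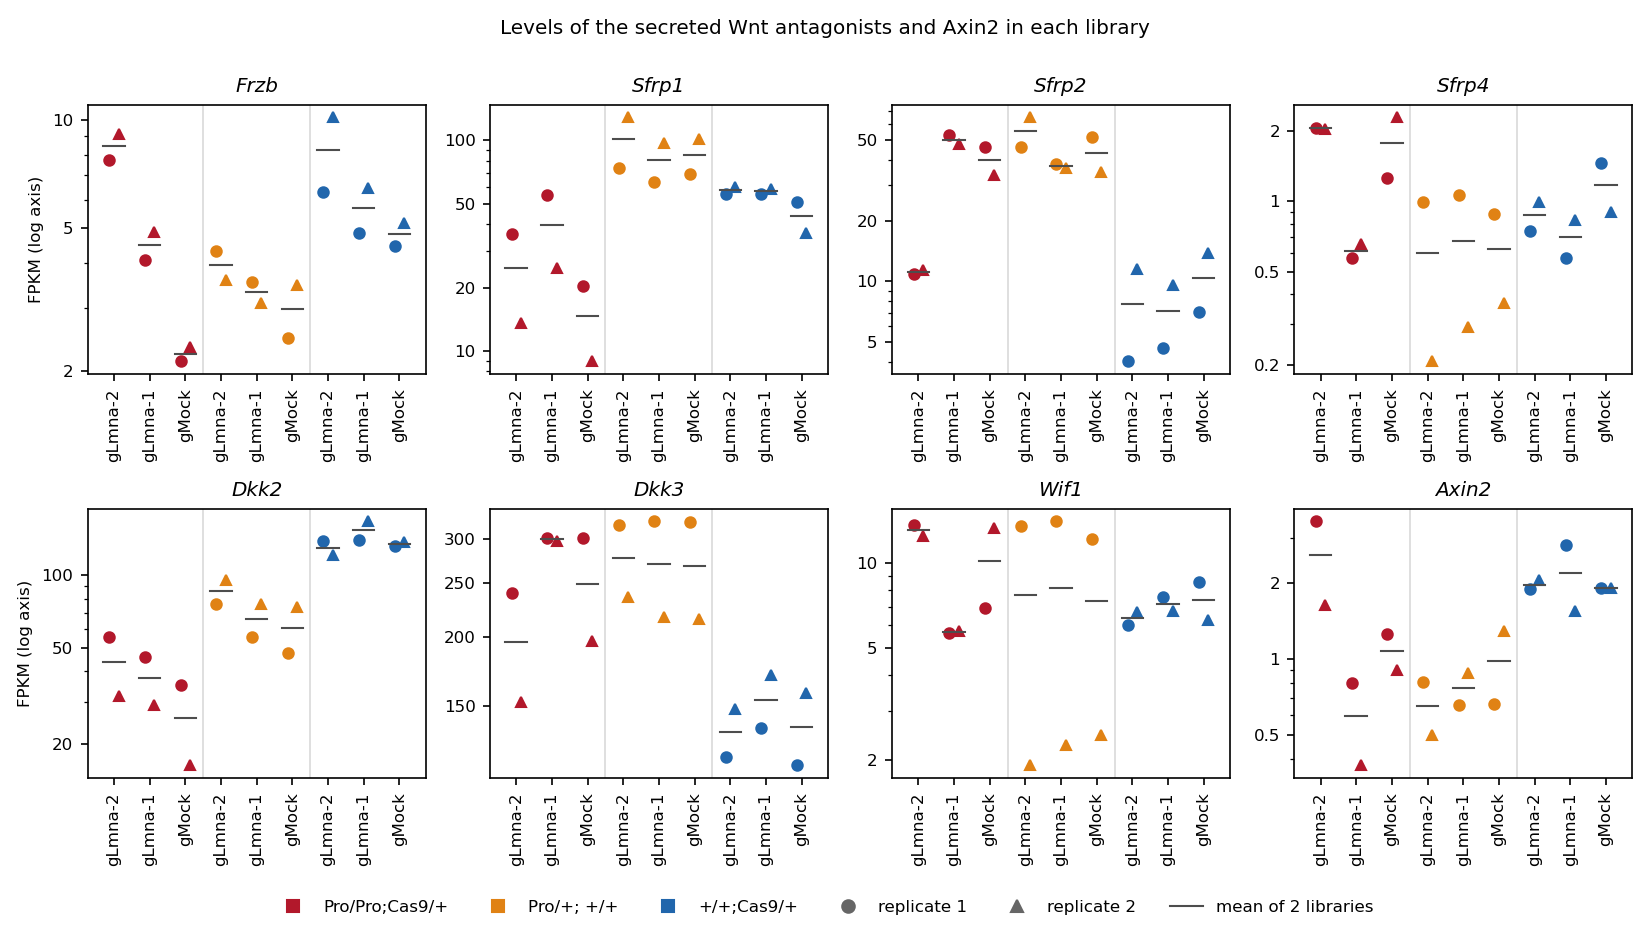
FPKM (vertical log axes) of each member in the 9 groups (horizontal axes, treatment, coloured by genotype). Circles are replicate 1, triangles replicate 2 and lines the mean of 2 libraries, and Sfrp2 at 10.8 and 11.5 FPKM in Pro/Pro;Cas9/+ cells with gLmna-2 lies apart from the other Pro/Pro;Cas9/+ libraries.

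Promoters are shown of 4 members that took opposite directions between the guides in Pro/Pro;Cas9/+ cells, Sfrp2, which was lower with gLmna-2 than with gLmna-1, and Axin2, Wif1 and Frzb, which were higher. They come from RefSeq on GRCm38.p6 (mm10), as the 250 bases before the start on the strand of the gene, 5′ to 3′, with CG dinucleotides in capitals.
Sfrp2 chr3:83766071-83766320: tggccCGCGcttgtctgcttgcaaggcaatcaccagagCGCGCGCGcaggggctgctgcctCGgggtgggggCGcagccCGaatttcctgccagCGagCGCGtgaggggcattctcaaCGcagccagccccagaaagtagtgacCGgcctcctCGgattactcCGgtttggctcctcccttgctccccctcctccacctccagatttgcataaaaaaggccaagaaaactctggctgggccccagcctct
Axin2 chr11:108920099-108920348: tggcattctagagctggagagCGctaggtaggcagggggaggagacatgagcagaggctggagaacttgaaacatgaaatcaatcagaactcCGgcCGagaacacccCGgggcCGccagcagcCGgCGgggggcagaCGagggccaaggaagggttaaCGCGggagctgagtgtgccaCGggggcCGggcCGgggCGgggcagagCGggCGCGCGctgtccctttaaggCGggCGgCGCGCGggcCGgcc
Wif1 chr10:121033754-121034003: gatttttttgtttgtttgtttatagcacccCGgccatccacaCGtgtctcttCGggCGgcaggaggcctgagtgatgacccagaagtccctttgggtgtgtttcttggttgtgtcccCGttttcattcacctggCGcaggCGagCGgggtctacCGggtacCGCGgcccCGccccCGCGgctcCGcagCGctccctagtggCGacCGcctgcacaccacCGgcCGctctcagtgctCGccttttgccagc
Frzb chr2:80447397-80447646: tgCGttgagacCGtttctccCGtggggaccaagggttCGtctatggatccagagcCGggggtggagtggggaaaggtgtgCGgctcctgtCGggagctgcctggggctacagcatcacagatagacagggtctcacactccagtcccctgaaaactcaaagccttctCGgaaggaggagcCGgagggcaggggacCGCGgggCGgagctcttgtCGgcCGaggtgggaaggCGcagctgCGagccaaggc
The promoter of Sfrp2 held 16 CG dinucleotides, that of Axin2 24, that of Wif1 21, that of Frzb 16 and that of Dkk2, not shown, 7, against a median of 6 over 32851 promoters. At least as many as in Sfrp2 or Frzb were found in 25.4% of promoters, and at least as many as in Dkk2 in 46.3%. The TCF motif was searched on both strands, in 300 bases around the start, as CTTTG followed by A or T at each of the 2 next bases. It was in 0 of these 5 promoters and in 16.9% of all promoters of that length. Sfrp1, Sfrp4 and Dkk3 had no entry in the promoter table used. In the expression table Sfrp2 spans chr3:83766321-83774314 (plus strand), Axin2 chr11:108920349-108950781 (plus), Wif1 chr10:121034004-121100642 (plus) and Frzb chr2:80411970-80447396 (minus). The levels are of whole transcripts over exons, with 5 parts for Sfrp2, 13 for Axin2, 12 for Wif1 and 8 for Frzb.

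With gLmna-2 against gLmna-1 in Pro/Pro;Cas9/+ cells, the antagonists moved in opposite directions. Sfrp2, Sfrp1 and Dkk3 were lower, Frzb, Sfrp4, Wif1 and the target Axin2 were higher, and Dkk2 did not pass. The comparison asks whether 2 guides against the same gene left the cells in the same state. Its log2 changes use no gMock library, but the SE and p-values rest on a spread estimated from all 18 libraries, those with gMock included. The comparison shares the 4 guide libraries with the guides against gMock, and it may itself have been used to choose the list. By limma with the mouse as a block, 7 of 8 members had an adjusted p under 0.05, beside 9.95% of all 12599 genes, and their median log2 change was 0.49, beside 0.06 over all genes. These counts describe the members, and nothing is read from their distance to the shares of all genes. All log2 changes here are on the scale of log2(FPKM + 1), which makes those of scarce genes smaller than the ratio of their levels.

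Sfrp2, the member with the largest change, had 10.8 and 11.5 FPKM with gLmna-2, against 53.01 and 47.7 FPKM with gLmna-1. Both mice thus had far less Sfrp2 with gLmna-2, with no overlap, and gMock libraries of these mice, at 46.5 and 33.4 FPKM, sat near those with gLmna-1. The log2 change was −2.08 (SE 0.22, adjusted p = 0.0030 by limma), and 5 of 5 parts of the transcript were lower in both mice. Sfrp1 had 35.95 and 13.6 FPKM with gLmna-2, against 54.9 and 24.7 FPKM with gLmna-1. Its libraries overlapped between the guides because replicate 2 was lower throughout, but the ratio within a mouse was 0.655 and 0.552, a log2 change of −0.71 (SE 0.14, adjusted p = 0.016 by limma). Dkk3 had 239.9 and 153 FPKM with gLmna-2, against 301 and 298 FPKM with gLmna-1. Dkk3 was lower in both mice without overlap, by more in replicate 2, with a log2 change of −0.65 (SE 0.14, adjusted p = 0.022 by limma).

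Axin2, the target, had 3.52 and 1.64 FPKM with gLmna-2, against 0.804 and 0.379 FPKM with gLmna-1. The ratio was 4.37 and 4.33 in replicates 1 and 2, with no overlap between the guides, and the log2 change was 1.13 (SE 0.22, adjusted p = 0.015 by limma). With a pseudocount of 0.1 FPKM it was 1.93 and with limma voom on the recovered reads 2.13. Wif1 had 13.6 and 12.5 FPKM with gLmna-2, against 5.64 and 5.74 FPKM with gLmna-1, and was higher without overlap (log2 change 1.07, SE 0.22, adjusted p = 0.018 by limma). Frzb had 7.73 and 9.14 FPKM with gLmna-2, against 4.08 and 4.87 FPKM with gLmna-1, again higher without overlap (log2 change 0.79, SE 0.15, adjusted p = 0.015 by limma). Sfrp4 had 2.06 and 2.04 FPKM with gLmna-2, against 0.571 and 0.656 FPKM with gLmna-1. It too was higher in both mice, with a log2 change of 0.92 (SE 0.18, adjusted p = 0.018 by limma) that was 1.59 with a pseudocount of 0.1 FPKM and 1.74 with limma voom. Dkk2 had 55.7 and 31.5 FPKM with gLmna-2, against 46.0 and 29.0 FPKM with gLmna-1 (log2 change 0.20, SE 0.13, adjusted p = 0.38 by limma).

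The directions were shared by nearly all of the transcript parts that were counted, but the calls rested on few libraries. Of parts with enough reads, 12 of 12 of Wif1, 9 of 9 of Axin2, 4 of 4 of Sfrp4 and 7 of 8 of Frzb were higher with gLmna-2 in both mice, and 5 of 5 of Sfrp1 and 8 of 8 of Dkk3 were lower. Enough reads was judged on the sum over the same 4 guide libraries, so some parts may count only through the guide where they are high. Sfrp4 has 8 parts in all, Axin2 13 and Dkk3 10. Parts of a transcript come from the same libraries and are not independent. Without the mouse as a block 0 of the 7 calls were left (lowest adjusted p = 0.058 by limma), and with only the Pro/Pro;Cas9/+ libraries in the fit 0 were left (lowest adjusted p = 0.19 by limma). Leaving out replicate 1 of gLmna-2 kept the call of Sfrp2, leaving out replicate 2 of gLmna-2 kept those of Sfrp2 and Wif1, and leaving out replicate 2 of gLmna-1 kept those of Axin2, Dkk3, Frzb and Sfrp2, with a log2 change of −0.34 for Dkk3.

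Markers of other cells differed between the same libraries, and their part in the antagonist results was not tested. Macrophage markers summed to 713 to 1341 FPKM with gLmna-2, against 398 to 1021 FPKM with gLmna-1, and 0 of 6 passed by limma. The median log2 change of these 6 was 0.60, toward higher levels with gLmna-2. Cartilage markers summed to 14.3 to 229.9 FPKM with gLmna-2, against 150.3 to 414 FPKM with gLmna-1. The ranges of the guides overlapped for both lists, but Col2a1, the main cartilage collagen, was lower with gLmna-2 (log2 change −2.31, adjusted p = 0.031 by limma), and Col9a1 was below 0.1 FPKM in all libraries. Col2a1 was the 1 of 3 tested cartilage markers that passed, and the median log2 change of the 3 was −0.07. The adipocyte markers summed to 34.9 to 37.3 FPKM with gLmna-2, against 52.5 to 63.4 FPKM with gLmna-1, with Fabp4 lower (−0.74, adjusted p = 0.014 by limma) and Adipoq below 0.1 FPKM. The other of the 2 tested adipocyte markers, Pparg, went the other way and did not pass, and their median log2 change was −0.16. Muscle markers summed to 1.02 to 1.58 FPKM with gLmna-2, against 0.1502 to 0.354 FPKM with gLmna-1, with Des higher (0.86, adjusted p = 0.020 by limma) and Myod1 and Myf5 below 0.1 FPKM. Schwann and pigment markers, with Dct below 0.1 FPKM, summed to 12.01 to 23.04 FPKM with gLmna-2, against 7.78 to 14.6 FPKM with gLmna-1, and endothelial markers to 0.930 to 1.99 FPKM, against 0.365 to 0.526 FPKM. Of 4 tested Schwann and pigment markers 0 passed by limma, with a median log2 change of 0.52. Bone markers summed to 18.4 to 19.5 FPKM with gLmna-2, against 21 to 21.07 FPKM with gLmna-1. Fibroblast markers summed to 10060 to 10500 FPKM with gLmna-2, against 11060 to 12010 FPKM with gLmna-1. The sums of fibroblast, adipocyte and bone markers were thus lower and those of muscle and endothelial markers higher with gLmna-2, without overlap. Of 11 tested fibroblast markers 1 was higher and 2 were lower, with a median log2 change of −0.01. Col1a1 and Col3a1, the main fibrillar collagens of skin, were the lower ones (−0.80 and −1.37, adjusted p = 0.029 and 0.022 by limma) and the surface marker Thy1 was higher (1.08, adjusted p = 0.014).

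**Figure D3:**
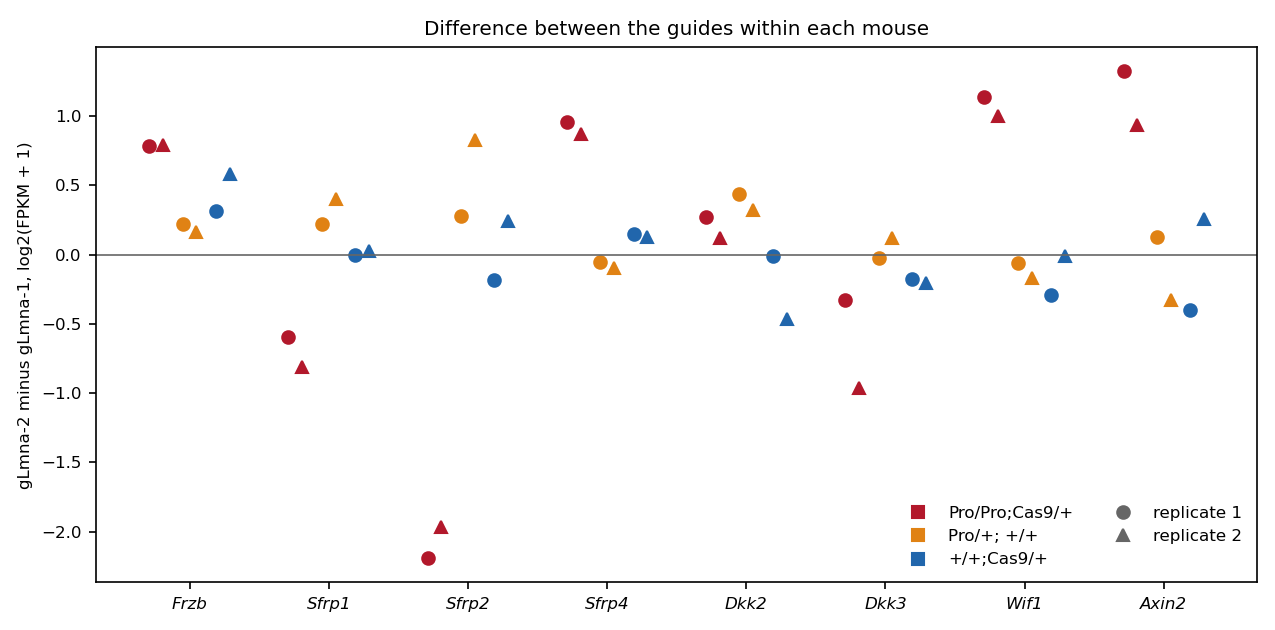
Difference of gLmna-2 minus gLmna-1 within each mouse (vertical axis, log2(FPKM + 1)) for the 8 members, coloured by genotype, with circles for replicate 1 and triangles for replicate 2. In Pro/Pro;Cas9/+ cells Sfrp2 was at −2.19 and −1.97, and the lowest value in the other genotypes was −0.47, for Dkk2 in +/+;Cas9/+ replicate 2.

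For the 7 members that passed, the same guide difference lay nearer to 0 in each mouse of the other genotypes, and it was often of another direction. Dkk2, which had not passed, differed by 0.27 and 0.12 on the log2 scale in Pro/Pro;Cas9/+ mice, 0.44 and 0.33 in heterozygous mice and −0.01 and −0.47 in the mice without Pro. Sfrp2 had 46.3 and 65.2 FPKM with gLmna-2, against 38.0 and 36.3 FPKM with gLmna-1 in heterozygous cells, and 4.03 and 11.5 FPKM, against 4.71 and 9.61 FPKM in +/+;Cas9/+ cells. It was higher with gLmna-2 in both heterozygous mice and split between the +/+;Cas9/+ mice. Sfrp1 had 74.1 and 129 FPKM with gLmna-2, against 63.4 and 97.4 FPKM with gLmna-1 in heterozygous cells, and 55.5 and 60.1 FPKM, against 55.7 and 59.0 FPKM in +/+;Cas9/+ cells. Axin2 had 0.807 and 0.498 FPKM with gLmna-2, against 0.657 and 0.881 FPKM with gLmna-1 in heterozygous cells, and 1.88 and 2.04 FPKM, against 2.81 and 1.55 FPKM in +/+;Cas9/+ cells. Axin2 was thus split between mice in both genotypes. Frzb was higher with gLmna-2 in 6 of 6 mice, with log2 differences of 0.78 and 0.79 in Pro/Pro;Cas9/+, 0.22 and 0.16 in heterozygous and 0.32 and 0.58 in +/+;Cas9/+ mice. The difference between genotypes was tested after these values had been seen, and it shares the Pro/Pro libraries of the contrast that may have chosen the list. Against heterozygous cells, Sfrp2 and Sfrp1 had a lower guide difference in Pro/Pro;Cas9/+ cells, by −2.63 (SE 0.31, adjusted p = 0.019) and −1.02 (SE 0.20, adjusted p = 0.037) by limma, so 2 of 8 members passed, beside 2.38% of all genes called. Without the mouse as a block these adjusted p-values were 0.21 and 0.72, and without a filter on low values that of Sfrp1 was 0.070. Neither gene passed when gLmna-2 of either Pro/Pro;Cas9/+ mouse, gLmna-1 of either heterozygous mouse or gLmna-2 of heterozygous replicate 2 was left out, with adjusted p between 0.072 and 0.16 for Sfrp2 by limma. Sfrp1 also did not pass without either gMock library or gLmna-2 of replicate 1 in heterozygous cells, or without gLmna-1 of replicate 2 in Pro/Pro;Cas9/+ cells. Leaving out gLmna-1 of Pro/Pro;Cas9/+ replicate 1 instead raised the count to 5 of 8. Against +/+;Cas9/+ cells 0 of 8 members passed by limma and by limma voom, beside 0.0476% of all genes called. At an unadjusted p under 0.05 by limma were 7 of 8 members, beside 1250 of all 12599 genes. Sfrp2 differed there by −2.11 (SE 0.31, adjusted p = 0.066 by limma), Wif1 by 1.22 (SE 0.31, adjusted p = 0.20) and Axin2 by 1.20 (SE 0.31, adjusted p = 0.21). Sfrp2 (adjusted p = 0.022) and Dkk3 (adjusted p = 0.0093) passed by limma when gLmna-1 of Pro/Pro;Cas9/+ replicate 1 was left out.

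Other genes of the Wnt pathway moved in the same comparison of gLmna-2 with gLmna-1 in Pro/Pro;Cas9/+ cells. Of 89 listed genes 59 were tested, and 20 passed, 13 higher and 7 lower, with a median log2 change of 0.05, beside 9.95% called and a median of 0.06 over all genes. Among the lists, 1 of 11 receptors and co-receptors (9.09%) and 2 of 18 intracellular components (11.1%) passed, which is near the share of all genes. Of 9 tested Wnt ligands 7 were higher and 1 lower. Wnt5a, a ligand known mainly for beta-catenin-independent signalling, had 23.0 and 14.6 FPKM with gLmna-2, against 13.5 and 10.6 FPKM with gLmna-1 (log2 change 0.58, adjusted p = 0.017 by limma), and the ligand Wnt9a had 7.50 and 4.04 FPKM, against 2.68 and 2.10 FPKM (0.95, adjusted p = 0.031). Wnt2b and Wnt10b were also higher (0.65 and 1.03, adjusted p = 0.019 and 0.026 by limma), as was Wnt2 (0.70, adjusted p = 0.040), which rested on 39 and 57 reads with gLmna-2, against 7 and 8 reads with gLmna-1. The ligand Wnt16 was lower, with 3.80 and 0.379 FPKM with gLmna-2, against 8.83 and 3.78 FPKM with gLmna-1 (−1.41, adjusted p = 0.016 by limma), and did not pass by limma voom (adjusted p = 0.12). Wls, which carries Wnt ligands to the cell surface, was lower (−0.29, adjusted p = 0.027), and the 1 receptor that passed was Ryk, an atypical Wnt receptor (−0.41, adjusted p = 0.044 by limma).

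Among R-spondins, which amplify Wnt signalling through Lgr receptors, Rspo3 and Rspo2 were lower. Rspo3 had 14.2 and 9.35 FPKM with gLmna-2, against 38.3 and 36.5 FPKM with gLmna-1, lower in both mice without overlap (log2 change −1.61, adjusted p = 0.0030 by limma). Rspo2 (−1.08, adjusted p = 0.037) and the receptor Lgr4 (−0.72, adjusted p = 0.0087) were lower as well, and the receptor Lgr6 was higher, with 4.15 and 23.8 FPKM with gLmna-2, against 0.705 and 1.15 FPKM with gLmna-1 (2.56, adjusted p = 0.012 by limma). The change of Lgr6 was 1.44 with replicate 2 of gLmna-1 left out and 3.98 by limma voom. These were 4 of 7 tested genes of the list. Of 14 tested Wnt targets other than Axin2, 4 were higher and 1 lower. Ccnd1, which encodes cyclin D1, had 198 and 300.4 FPKM with gLmna-2, against 93.6 and 120.2 FPKM with gLmna-1 (1.19, adjusted p = 0.0030 by limma), and Apcdd1, a membrane inhibitor of the pathway, had 8.45 and 11.8 FPKM, against 2.09 and 2.26 FPKM (1.80, adjusted p = 0.0041). Of 4 tested further inhibitors of the pathway, Apcdd1 was the 1 that passed. Cd44, a hyaluronan receptor, and Tcf7, a TCF factor, were also higher (1.19 and 0.74, adjusted p = 0.0087 and 0.015 by limma), and Bmp4, a BMP ligand, was lower (−0.90, adjusted p = 0.015). Myc, also a target, did not pass (−0.08, adjusted p = 0.88 by limma), nor did Lef1, a factor and target (0.77, adjusted p = 0.052). The intracellular components that passed were Tcf7 and Dvl1, which relays the receptor signal (0.37, adjusted p = 0.042 by limma), and beta-catenin itself, Ctnnb1, differed by 0.06 (adjusted p = 0.75). Some of these genes also differed between the guides without Pro, where this was not tested. In +/+;Cas9/+ mice Bmp4 differed by −1.03 and −1.44 on the log2 scale, further from 0 than the −0.80 and −0.999 in Pro/Pro;Cas9/+ mice. Tcf7 differed by 0.85 and 0.52 without Pro, beside 0.48 and 0.998 in the homozygous mice, and Ryk by −0.10 and −0.29, beside −0.24 and −0.57. As for the members, these calls depended on the fit: 2 of the 59 passed without the mouse as a block, 0 with only the Pro/Pro;Cas9/+ libraries, 3 with either gLmna-2 library left out, 9 with replicate 2 of gLmna-1 left out and 28 with replicate 1 of gLmna-1 left out.

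**Figure D4:**
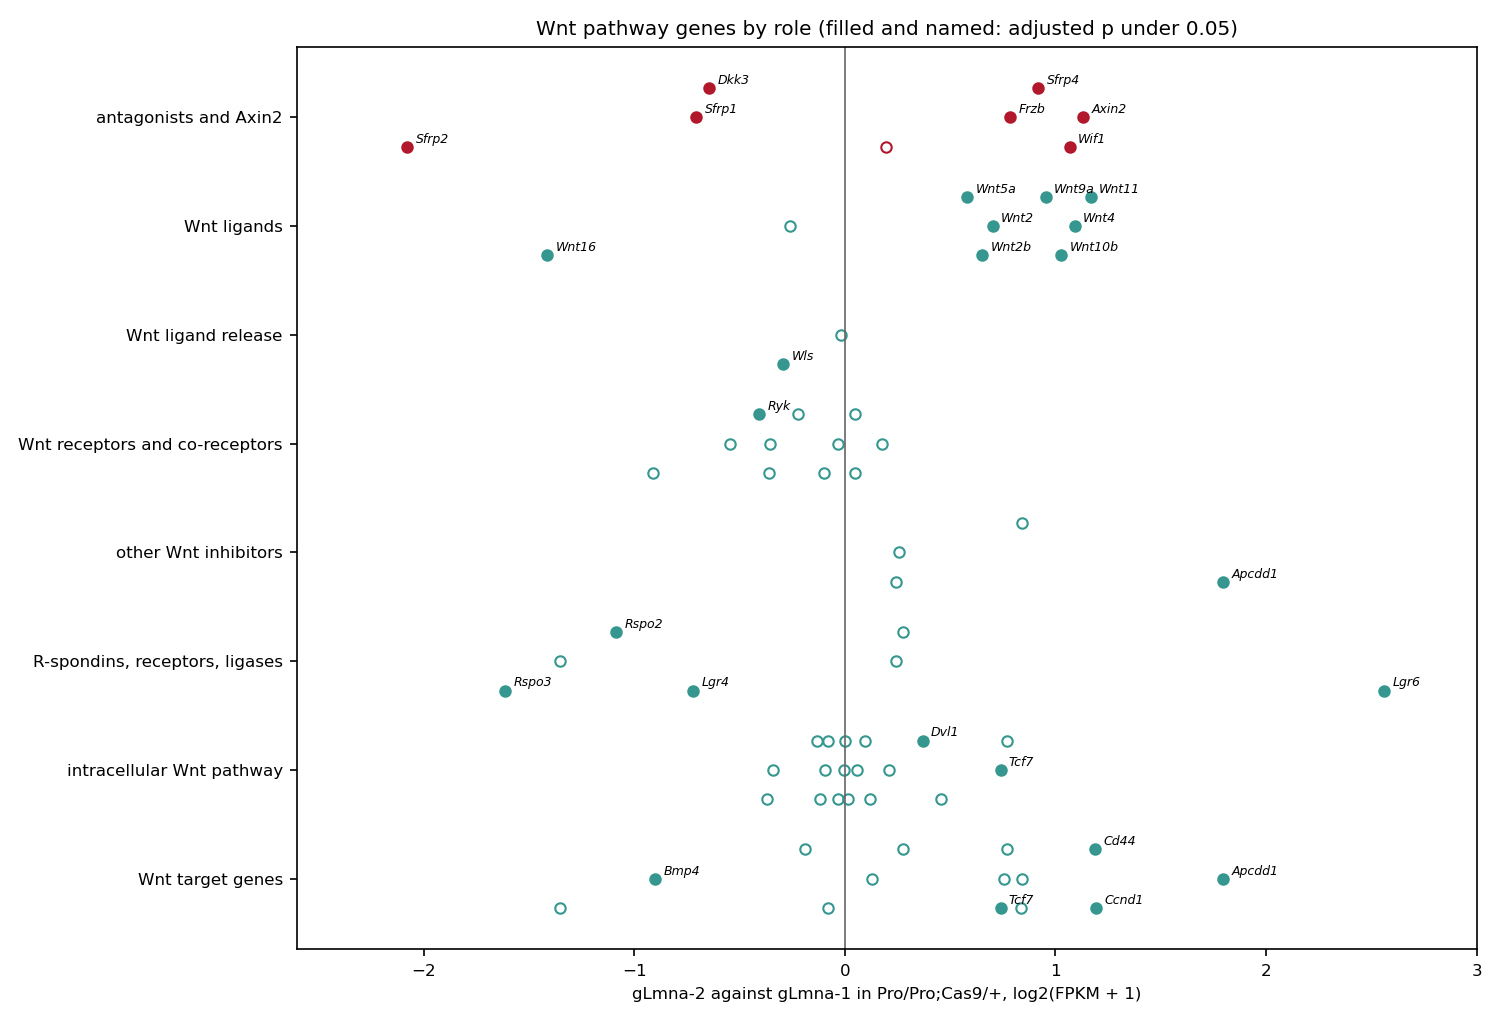
Log2 change with gLmna-2 against gLmna-1 in Pro/Pro;Cas9/+ cells (horizontal axis) for the 8 members and the 59 other tested genes of the Wnt pathway, by role (vertical axis, Tcf7 and Apcdd1 among those on 2 lists). Filled and named points have an adjusted p under 0.05, with Sfrp2 at −2.08 lowest and Lgr6 at 2.56 highest.

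For both guides against gMock in Pro/Pro;Cas9/+ cells, a contrast known when the list was chosen, the values follow without a test. Frzb had 7.73 and 9.14 FPKM with gLmna-2 and 4.08 and 4.87 FPKM with gLmna-1, against 2.13 and 2.34 FPKM with gMock. Sfrp1 had 35.95 and 13.6 FPKM with gLmna-2 and 54.9 and 24.7 FPKM with gLmna-1, against 20.5 and 8.93 FPKM with gMock. Both genes were above gMock in the 4 guide libraries when compared within a mouse, but the order of the guides was opposite, with gLmna-2 higher for Frzb and gLmna-1 higher for Sfrp1. The mean log2 change was 1.15 for Frzb, 1.02 for Sfrp1 and 0.68 for Dkk2. The fit called 0.0794% of all genes in this contrast, and calls of the members are not given since the contrast was known. Dkk2 had 55.7 and 31.5 FPKM with gLmna-2 and 46.0 and 29.0 FPKM with gLmna-1, against 35.02 and 16.3 FPKM with gMock. For Sfrp2 and Axin2 a mean over the guides hides a split. Relative to gMock of the same mouse, Sfrp2 differed by −2.004 and −1.466 with gLmna-2, and by 0.19 and 0.50 with gLmna-1. Axin2 differed by 1.01 and 0.47 with gLmna-2, and by −0.32 and −0.47 with gLmna-1. Wif1 and Sfrp4 were below gMock with gLmna-1 in both mice and, with gLmna-2, above it in replicate 1 and slightly below it in replicate 2.

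In +/+;Cas9/+ cells the guides against gMock ask for a response where Cas9 is present and the Pro allele is not. Of 8 members, 0 passed by limma or limma voom, beside 0.849% of all genes called. At an unadjusted p under 0.05 by limma were 3 of 8 members, beside 959 of all 12599 genes. Frzb had 6.29 and 10.2 FPKM with gLmna-2 and 4.86 and 6.48 FPKM with gLmna-1, against 4.46 and 5.17 FPKM with gMock. Within each mouse Frzb was above gMock with both guides (log2 change 0.41, SE 0.13, adjusted p = 0.47 by limma). Sfrp1 had 55.5 and 60.1 FPKM with gLmna-2 and 55.7 and 59.0 FPKM with gLmna-1, against 51.2 and 36.4 FPKM with gMock (log2 change 0.41, SE 0.12, adjusted p = 0.41 by limma). It was above gMock in all 4 guide libraries, mostly in replicate 2. Sfrp2 had 4.03 and 11.5 FPKM with gLmna-2 and 4.71 and 9.61 FPKM with gLmna-1, against 7.04 and 13.9 FPKM with gMock (log2 change −0.48, SE 0.19, adjusted p = 0.63 by limma), and was below gMock in both mice with both guides.

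In heterozygous cells, which carry no Cas9, the guides against gMock serve as the negative control. Of 8 members, 0 passed by limma or limma voom, with 1, Dkk2, at an unadjusted p under 0.05, and 0% of all genes were called, with 397 at an unadjusted p under 0.05. Dkk2 had 76.0 and 95.7 FPKM with gLmna-2 and 55.8 and 76.2 FPKM with gLmna-1, against 47.6 and 74.0 FPKM with gMock (log2 change 0.32, SE 0.11, adjusted p = 1 by limma). It was above gMock in both mice with both guides, by 0.66 and 0.37 with gLmna-2 and 0.22 and 0.04 with gLmna-1. Frzb had 4.30 and 3.58 FPKM with gLmna-2 and 3.55 and 3.09 FPKM with gLmna-1, against 2.48 and 3.47 FPKM with gMock (log2 change 0.23, SE 0.13, adjusted p = 1 by limma), above gMock in replicate 1 and split in replicate 2. The guide effect of +/+;Cas9/+ cells minus that of heterozygous cells passed for 0 of 8 members by limma and limma voom. Over all genes, limma called 0.294%, and 484 of 12599 had an unadjusted p under 0.05, as had 0 of 8 members. The largest such difference among the members was that of Sfrp2, at −0.56 (SE 0.27, adjusted p = 0.96 by limma).

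Against +/+;Cas9/+ cells under gMock, the largest differences among the members were those of Dkk2 and Sfrp2, but no member passed. Dkk2 had 35.02 and 16.3 FPKM in Pro/Pro;Cas9/+ cells and 47.6 and 74.0 FPKM in heterozygous cells, against 132 and 137 FPKM in +/+;Cas9/+ cells. Its 3 genotypes did not overlap, and the log2 difference from +/+;Cas9/+ cells was −2.44 (SE 0.37, adjusted p = 0.081 by limma) for Pro/Pro;Cas9/+ and −1.17 (SE 0.37, adjusted p = 0.31) for heterozygous cells. Sfrp2 had 46.5 and 33.4 FPKM in Pro/Pro;Cas9/+ cells and 52.0 and 34.7 FPKM in heterozygous cells, against 7.04 and 13.9 FPKM in +/+;Cas9/+ cells. Both genotypes with a Pro allele lay above +/+;Cas9/+ cells without overlap, by 1.89 (SE 0.35, adjusted p = 0.13 by limma) and 1.99 (SE 0.35, adjusted p = 0.12). With the mean of 3 treatments per mouse, Sfrp2 passed for heterozygous cells, by 2.37 (adjusted p = 0.048 by limma). Sfrp1 lay on opposite sides of the cells without Pro in the genotypes with a Pro allele, without overlap. It had 20.5 and 8.93 FPKM in Pro/Pro;Cas9/+ cells and 69.2 and 101 FPKM in heterozygous cells, against 51.2 and 36.4 FPKM in +/+;Cas9/+ cells, differences of −1.60 (SE 0.40, adjusted p = 0.23 by limma) and 0.94 (SE 0.40, adjusted p = 0.42).

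Dkk3 had 302 and 197 FPKM in Pro/Pro;Cas9/+ cells and 322 and 215 FPKM in heterozygous cells, against 118 and 158 FPKM in +/+;Cas9/+ cells, higher in both without overlap (0.83 and 0.94, SE 0.30 each, adjusted p = 0.40 and 0.31 by limma). Frzb had 2.13 and 2.34 FPKM in Pro/Pro;Cas9/+ cells and 2.48 and 3.47 FPKM in heterozygous cells, against 4.46 and 5.17 FPKM in +/+;Cas9/+ cells, lower in both without overlap (−0.85 and −0.56, SE 0.18 each, adjusted p = 0.16 and 0.31 by limma). Axin2 had 1.25 and 0.905 FPKM in Pro/Pro;Cas9/+ cells and 0.664 and 1.29 FPKM in heterozygous cells, against 1.90 and 1.91 FPKM in +/+;Cas9/+ cells (−0.49 and −0.57, SE 0.21 each, adjusted p = 0.53 and 0.36 by limma). Axin2, like Frzb and Dkk2, was thus below +/+;Cas9/+ cells in both genotypes with a Pro allele, where Sfrp2 and Dkk3 were above them. With 2 libraries a genotype, values without overlap also arise often where there is no difference. The share of all genes that separate in this way was not computed, so no pattern is read from these members. Wif1 had 6.93 and 13.3 FPKM in Pro/Pro;Cas9/+ cells and 12.1 and 2.47 FPKM in heterozygous cells, against 8.52 and 6.29 FPKM without Pro, and overlapped between all 3. Sfrp4 had 1.26 and 2.30 FPKM in Pro/Pro;Cas9/+ cells and 0.885 and 0.366 FPKM in heterozygous cells, against 1.45 and 0.898 FPKM in +/+;Cas9/+ cells, so that the heterozygous cells lay just below and the others overlapped. In each comparison 0 of 8 members passed by limma and by limma voom. Limma called 0.397% of all genes for Pro/Pro;Cas9/+ and 0.413% for heterozygous cells. At an unadjusted p under 0.05 by limma were 5 of 8 members in each, beside 1308 and 1577 of all 12599 genes. Both comparisons use the same gMock libraries of +/+;Cas9/+ cells. The gMock libraries of Pro/Pro;Cas9/+ cells also served in the guides against gMock, the contrast known when the list was chosen. Low values of Frzb and Sfrp1 in them may have favoured the choice of these genes, and their p-values may then be too small. The fit had 6 libraries and 3 residual degrees of freedom, so differences of this size were not resolved with 2 mice a group. Macrophage markers in these libraries summed to 506 to 649 FPKM in Pro/Pro;Cas9/+ cells and 63.3 to 291 FPKM in heterozygous cells, against 62.7 to 223 FPKM in +/+;Cas9/+ cells. Cartilage markers summed to 100.2 to 415 FPKM in Pro/Pro;Cas9/+ cells and 81.8 to 149 FPKM in heterozygous cells, against 19.2 to 62.2 FPKM in +/+;Cas9/+ cells. Adipocyte markers summed to 49.8 to 53.01 FPKM in homozygous and 44.1 to 54.4 FPKM in heterozygous cells, against 20.6 to 31.5 FPKM in cells without Pro. Bone markers summed to 20.2 to 22.6 FPKM in homozygous and 32.1 to 34.7 FPKM in heterozygous cells, against 13.4 to 13.5 FPKM without Pro, and fibroblast markers to 9740 to 11230 FPKM and 9998 to 10090 FPKM, against 8649 to 9255 FPKM. These 4 lists, from cartilage to fibroblast, were higher in both genotypes with a Pro allele without overlap, as were Sfrp2 and Dkk3. Muscle and endothelial markers were lower in heterozygous cells without overlap, at 0.225 to 0.727 FPKM and 0.137 to 0.299 FPKM, against 0.887 to 1.62 FPKM and 0.682 to 0.716 FPKM without Pro. The part of these markers in the differences was not tested.

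**Figure D5:**
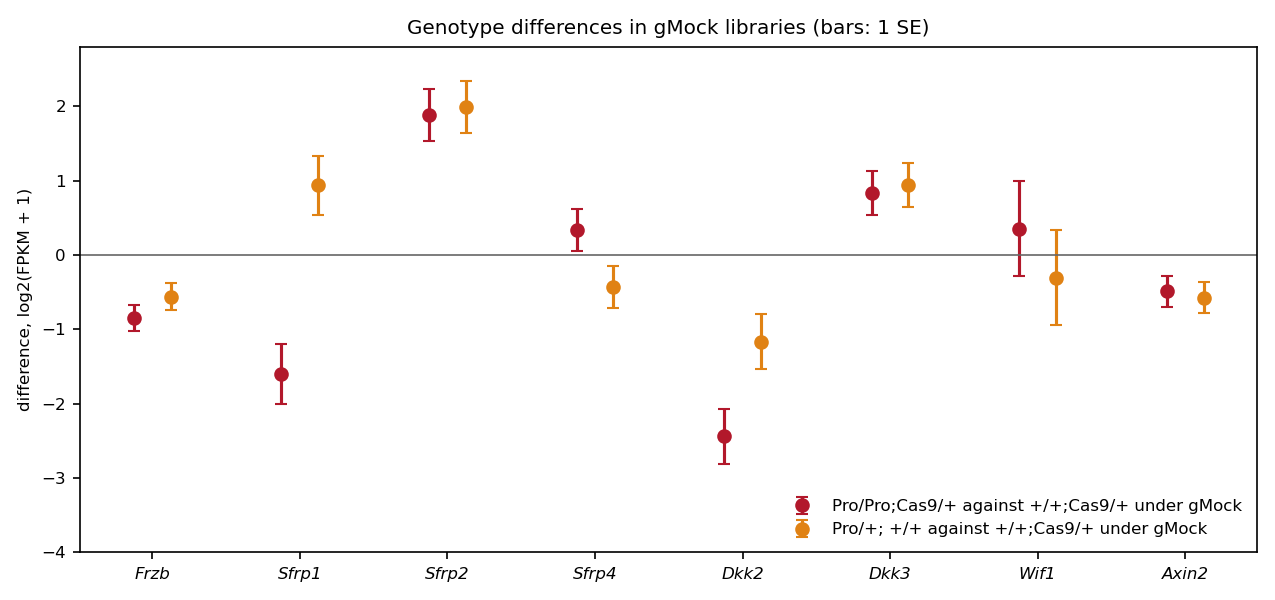
Differences of Pro/Pro;Cas9/+ (red) and heterozygous (orange) from +/+;Cas9/+ cells under gMock (vertical axis, log2(FPKM + 1), bars 1 SE) for the 8 members. Sfrp2 is highest, at 1.89 and 1.99, and Dkk2 lowest, at −2.44 and −1.17, and none passed an adjusted p of 0.05.

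Across the 18 libraries some members varied together, described here by Pearson's r of log2(FPKM + 1), and no grouping was computed. The libraries share 6 mice and 3 treatments, so they are not independent, and no p is given. Sfrp2 followed Dkk3 (r = 0.87) and ran opposite to Axin2 (r = −0.85). Wif1 followed Sfrp4 (r = 0.82), which ran opposite to Sfrp1 (r = −0.78). Sfrp1 and Dkk2 had r = 0.66, Dkk3 and Axin2 −0.67, and Frzb and Sfrp2 −0.66. The remaining pairs lay between −0.57, for Sfrp2 and Dkk2, and 0.59, for Frzb and Axin2. Among 10445 genes with a mean of at least 2 FPKM, those most alike to Sfrp2 were Tm9sf4 (r = 0.938), Tpst1, which sulfates protein tyrosines (r = 0.935), and Pax9, a transcription factor (r = 0.934). Dkk3 was most alike to Ogn, a small matrix proteoglycan (r = 0.962), Lrrn3 (r = 0.961) and P4ha1, a collagen prolyl hydroxylase subunit (r = 0.958). Dkk2 was most alike to the metalloprotease Adam33 (r = 0.981), the guidance ligand Slit3 (r = 0.964) and Tmem119 (r = 0.959), and Sfrp1 to the matrix genes Thbs4 (r = 0.946) and Fstl1 (r = 0.936) and to Antxr1 (r = 0.910). Frzb and Axin2 had looser partners. Frzb was most alike to H2-DMa, which loads peptides on class II molecules (r = 0.845), Camk2n2 (r = 0.839) and Lrrc27 (r = 0.821), and Axin2 to Cap2 (r = 0.866), the glucose transporter Slc2a3 (r = 0.861) and Tes (r = 0.860). Sfrp4 was most alike to Gclc, an enzyme of glutathione synthesis (r = 0.929), Sec11c (r = 0.897) and Snrnp48 (r = 0.897), and Wif1 to Kdm6a (r = 0.891), Clec2h (r = 0.883) and Ptgs2, which encodes cyclooxygenase 2 (r = 0.880).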

How the data were processed

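RNA-seq of 18 libraries was used. Per the submitters' processing notes, the tools were FastQC 0.11.2, STAR 2.4.0k for alignment to mm10, and HOMER. The deposited FPKM values cover exons and, per the file headers, list 404759 parts of 36795 transcripts, with part lengths in bases as another deposited column. No strand setting is given in the sources used here, so antisense reads cannot be told apart. Of 24 library columns, 6 match no sample used here and were left out. Parts were combined by length, symbols came from RefSeq (36474 transcripts) and GENCODE tables (194), with 127 unnamed, and the transcript with the highest mean stood for a symbol. The design had assumed a table by gene. The depth of each library was fitted so that FPKM steps gave whole reads. This held within 0.05 for 100% of the values checked, 226204 to 241547 nonzero parts with few reads per library.

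Genes at 1 FPKM or more in 2 or more libraries were tested on log2(FPKM + 1) by limma 3.58.1 (lmFit, trended eBayes, R 4.3.3). Adjusted p-values are by Benjamini-Hochberg over all 12599 genes, with a threshold of 0.05. Guide contrasts used 18 libraries with the mouse, named in the labels, as a block (6 residual degrees of freedom). After removal of group means, libraries of a mouse correlated by 0.00 to 0.82 in Pro/Pro;Cas9/+, 0.51 to 0.77 in Pro/+; +/+ and 0.19 to 0.62 in +/+;Cas9/+ mice. Genotypes were compared in 6 gMock libraries. Fits were tested on simulated data. Other software was Python 3.11.15 with numpy 2.4.6, pandas 2.3.3, and matplotlib 3.10.9 for plots. Alternatives were a pseudocount of 0.1, no filter, median ratio scaling, the mean of all transcripts, limma voom on the recovered reads, no block, fewer libraries in the fit and mouse means.

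The members, lists and tests were chosen with earlier results of these data known. Named are the 8 members, at most 6 genes per pathway list that passed, by smallest adjusted p, the 3 genes most alike to each member, and Lmna. Myc, Lef1, Ctnnb1 and marker genes are named outside this rule, after their values were seen. The tests of the guide difference between genotypes were added after seeing the data.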

Additional observations from a re-analysis of the deposited data

Results flagged for a closer look

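For some members the difference of gLmna-2 minus gLmna-1 had one direction in both mice of one genotype and the opposite direction in both mice of another. Between Pro/Pro;Cas9/+ and heterozygous cells these were Sfrp1 (difference of the log2 changes −1.02), Sfrp2 (−2.63), Sfrp4 (0.99, adjusted p = 0.085 by limma) and Wif1 (1.18, adjusted p = 0.081 by limma), of which Sfrp1 and Sfrp2 passed the test of the difference. Between Pro/Pro;Cas9/+ and +/+;Cas9/+ cells these were Wif1 (1.22) and Dkk2 (0.44, adjusted p = 0.45 by limma), and neither passed. Between +/+;Cas9/+ and heterozygous cells Sfrp4 (0.21) and Dkk2 (−0.62) had opposite directions, and this difference was not tested. With 2 mice a genotype, opposite signs also arise where there is no difference. The share of all genes with such opposite signs was not computed, so nothing is read from how many members had them.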

How the results depend on the processing

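Numbers of all genes called follow, with the number in the fit of the report in brackets. For gLmna-2 against gLmna-1 in Pro/Pro;Cas9/+ (1253) there were 59 with no replicate block for the mouse, 0 with that genotype only and 140 to 2629 without one library. Minus the same in Pro/+; +/+ (300) there were 50 with no filter, 1 with no block and 0 to 2056 without one library. Minus the same in +/+;Cas9/+ (6) there were 0 with no filter, 10 with median ratio scaling, 10 with limma voom, 0 with no block and 0 to 548 without one library. Guides against gMock gave, in Pro/Pro;Cas9/+ (10), 1 with no filter, 0 with no block, 0 with that genotype only and 1 to 152 without one library, and in +/+;Cas9/+ (107) 67 with that genotype only and 0 to 84 without one library. The +/+;Cas9/+ minus Pro/+; +/+ guide effect (37) gave 0 with a pseudocount of 0.1, 6 with no filter, 8 with scaling, 1 with limma voom, 10 with no block and 0 to 38 without one library. Under gMock, Pro/Pro;Cas9/+ against +/+;Cas9/+ (50) gave 2 with no filter, 32 with scaling, 31 with limma voom and 0 to 2 without one library, and Pro/+; +/+ against +/+;Cas9/+ (52) gave 15 with no filter, 183 with mouse means and 0 to 179 without one library.

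Directions turned only where one library was left out. Sfrp4 with the guides ranged over −0.57 to 0.011 in +/+;Cas9/+, and minus Pro/+; +/+ over −0.55 to 0.024. Frzb with the guides in Pro/+; +/+ ranged over −0.045 to 0.50. Wif1 under gMock against +/+;Cas9/+ ranged over −0.070 to 0.78 for Pro/Pro;Cas9/+ and −1.26 to 0.66 for Pro/+; +/+. Of 558 single values without one library 472 were unchanged, as were 414 of 475 under other settings. Unchanged means the same direction and side of the threshold, so values called in neither fit count too. For the guides against gMock in Pro/Pro;Cas9/+, it means the same direction and a change within the SD between the mice. Single values were followed where the log2 change was at least 0.2, a limit set after seeing them, and for all members and named pathway genes between the guides. The cause of these changes was not tested. Counts as low as 13 reads for Sfrp4 and 2 mice a genotype limit what can be resolved.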
